A study of Homo sapiens with 4 samples.

Results

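The nuclear genes for the respiratory chain and ATP synthase were followed in 769-P cells, a human renal clear cell carcinoma line. They are the protein-coding genes of the deposited tables whose symbols begin with NDUF, UQCR, ATP5 or COX4 to COX8, or read SDHA to SDHD, without hyphenated read-through names. The rule took 97 of 58735 genes, with 47 in complex I, 4 in complex II, 9 in complex III, 17 in complex IV and 20 in complex V. The NDUF names include 8 assembly factors, which help build complex I but are not part of it, and NDUFA4, which is now counted with complex IV.

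The study induced a short hairpin RNA against USP35, a ubiquitin-specific protease, and sequenced total RNA. The doxycycline group (2 libraries) came from cells with a stably integrated inducible hairpin that received doxycycline at 1 µg/ml for 4 days. The control group (2 libraries) came from the same hairpin-carrying cells left untreated. Cells with doxycycline but no hairpin were not analysed here, so effects of the drug and of the hairpin cannot be told apart. Doxycycline is known to inhibit the mitochondrial ribosome, which makes the subunits encoded in mitochondrial DNA. The labels do not state that the libraries of a group were grown apart, and the p-values then reflect library-to-library spread that may be technical.

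Complexes I and II feed electrons from NADH and succinate into ubiquinone, complex III passes them to cytochrome c, and complex IV passes them to oxygen. Complexes I, III and IV pump protons, and complex V, the ATP synthase, uses the proton gradient to make ATP. Complex II is encoded by nuclear genes alone, whereas the other complexes combine nuclear with mitochondrially encoded subunits. Clear cell renal carcinoma is known for activated hypoxia-inducible factors and a metabolism shifted from respiration towards glycolysis.

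Levels are FPKM, fragments scaled to gene length and library size. The length covers all annotated exon bases of a gene, not those of a single transcript. Rankings between genes, sums by complex and the 1 FPKM filter therefore depend partly on annotated length. In doxycycline replicate 1, ATP5F1A (10908 bases) had 12594 reads and 61.4 FPKM. ATP5F1B (2322 bases) had 23437 reads and 537 FPKM in that library. Comparisons of 1 gene between libraries use the same length. Depth was 17481827 and 18764546 recovered reads with doxycycline and 16319640 and 17244546 in the controls. USP35 stood at 2.11 and 2.54 FPKM with doxycycline and at 3.31 and 4.19 FPKM in the controls, and did not pass the test (limma adjusted p = 0.256). Mitochondrially encoded genes took 7.44% and 14.6% of reads with doxycycline and 8.21% and 8.50% in the controls, so doxycycline replicate 2 stood apart. Of 8 markers of kidney epithelium and clear cell carcinoma, 6 were kept in the test, with PAX8 at a mean of 43.9 FPKM with doxycycline and 51.2 FPKM in the controls. Of these 6, KRT18, KRT8 and VIM were below both controls in both doxycycline libraries, PAX2 was above both, and PAX8 and CDH2 overlapped. KRT18, an epithelial keratin, stood at 31.3 and 30.7 FPKM with doxycycline and 62.3 and 50.05 FPKM in the controls (log2(FPKM + 1) difference -0.83, limma unadjusted p = 0.00891, adjusted p = 0.148). CA9, a marker of this carcinoma, reached at most 0.038 FPKM and EPCAM at most 0.41 FPKM in any library. Of the endothelial, leukocyte and fibroblast markers (3 each), 0 were kept.

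The core promoters of 4 members are shown because the results return to them. ATP5F1E had the lowest p of all members, ATP5F1C encodes its partner in the same rotating stalk, and UQCRC1 and UQCRC2 encode the paired core proteins of complex III, whose levels lay on opposite sides of the controls. Each is the 250 bases before the transcription start in RefSeq on GRCh38.p14, written 5′ to 3′ along the gene. Capitals mark matches to GCGCANGCG, the core of the site bound by nuclear respiratory factor 1, a known activator of respiratory chain genes, on either strand.
ATP5F1E (chr20:59032336-59032585, minus strand): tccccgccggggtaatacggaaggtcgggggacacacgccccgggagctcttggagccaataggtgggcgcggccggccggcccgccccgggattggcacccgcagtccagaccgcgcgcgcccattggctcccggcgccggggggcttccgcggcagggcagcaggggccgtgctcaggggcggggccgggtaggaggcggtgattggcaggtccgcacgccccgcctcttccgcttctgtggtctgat
ATP5F1C (chr10:7787927-7788176, plus strand): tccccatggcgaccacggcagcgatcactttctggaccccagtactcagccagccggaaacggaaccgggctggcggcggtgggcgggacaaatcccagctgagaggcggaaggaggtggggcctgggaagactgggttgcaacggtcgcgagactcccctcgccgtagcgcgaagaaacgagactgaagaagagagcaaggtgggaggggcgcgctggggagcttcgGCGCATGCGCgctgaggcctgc
UQCRC1 (chr3:48609647-48609896, minus strand): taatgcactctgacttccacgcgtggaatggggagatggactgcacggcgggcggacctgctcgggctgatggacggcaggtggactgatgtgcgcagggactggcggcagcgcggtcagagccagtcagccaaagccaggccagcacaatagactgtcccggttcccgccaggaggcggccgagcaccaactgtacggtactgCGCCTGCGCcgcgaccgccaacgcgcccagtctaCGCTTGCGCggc
UQCRC2 (chr16:21953111-21953360, plus strand): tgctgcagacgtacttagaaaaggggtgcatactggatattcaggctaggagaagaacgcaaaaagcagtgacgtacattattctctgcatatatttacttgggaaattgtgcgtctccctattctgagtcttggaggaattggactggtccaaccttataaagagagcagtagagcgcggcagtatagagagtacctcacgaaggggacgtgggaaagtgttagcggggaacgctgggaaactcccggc
ATP5F1C held the motif as 2 overlapping matches on opposite strands, and UQCRC1 held 2 matches. In UQCRC1 the first match began 46 bases before the start, and in ATP5F1C 22 bases before it. The windows of ATP5F1E and UQCRC2 held 0 matches, which says only that these letters were not in them. The RefSeq starts lay 47 bases from the gene start in the deposited tables for ATP5F1E, 48 for ATP5F1C, 1330 for UQCRC1 and 701 for UQCRC2. Of 75 members with a window in the table, 20 (26.7%) held this motif, against 1483 of 14903 windows (9.95%) of protein-coding genes. CCGGAAG, the core letters bound by ETS factors such as the GA-binding protein, on either strand, was in 17 of the 75 members (22.7%) and in 1782 of the 14903 windows (12.0%). Motif matches are a description of the letters, not of binding.

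As a group, nuclear respiratory chain transcripts lay close to control levels after doxycycline, and the members differed among themselves in direction. Of the 97 members, 86 had a mean of at least 1 FPKM and entered the test, among 12029 genes. Their median difference, taken as doxycycline minus control in log2(FPKM + 1) and called the log2 difference here, was 0.03, beside -0.03 over all genes tested. It was -0.02 in doxycycline replicate 1 and 0.06 in replicate 2. For 77 of 86 members (89.5%) the log2 difference was smaller than 0.5 in size, as it was for 74.7% of all genes. With 2 libraries a group, 0 members passed a limma adjusted p under 0.05, as did 0.0% of all genes. A bulk measurement cannot tell fewer cells with a transcript from less of it per cell.

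At a limma unadjusted p under 0.05, 1 member was higher with doxycycline, NDUFAF4, where 6.47% of all genes were higher at that level. Lower at that level were 3 members, ATP5F1E, ATP5ME and ATP5IF1, all of ATP synthase, where 11.9% of all genes were lower. Both doxycycline libraries exceeded both controls in 14 of 86 members, against 24.3% of all genes. They lay below both controls for 16 members, against 28.9% of all genes. For the other 56 members the groups overlapped.

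**Figure D1:**
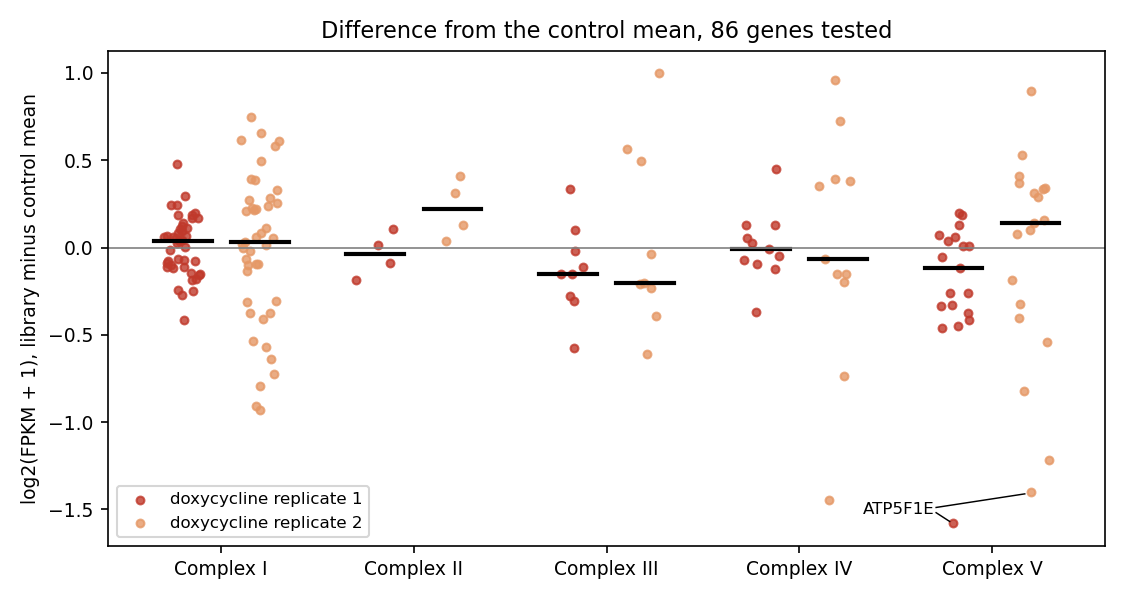
Points give each tested gene's log2(FPKM + 1) in doxycycline replicate 1 or 2 minus the control mean, by complex, and black bars give medians. The medians lie between -0.20 and 0.22, and ATP5F1E lies near -1.5 in both libraries.

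By complex, the median log2 difference was 0.03 for complex I (43 tested), 0.07 for complex II (4), -0.16 for complex III (9), -0.01 for complex IV (11) and 0.07 for complex V (19). Complex III was the one complex whose median lay below 0 by more than 0.1, at -0.15 in doxycycline replicate 1 and -0.20 in replicate 2. Its median was 0.007 under quantile normalization and 0.03 without control replicate 1, so its direction depends on that scaling and that library. The medians of the other complexes also changed sign when 1 library was left out, and that of complex IV was 0.17 under quantile normalization. Members above both controls numbered 8 in complex I, 1 in complex II, 1 in complex III, 1 in complex IV and 3 in complex V. Members below both controls numbered 5, 0, 3, 1 and 7 in the same order. Over all genes tested the shares were 24.3% above and 28.9% below.

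Summed over members, the FPKM of complex I was 1415 and 1417 with doxycycline and 1567 and 1248 in the controls. Complex II summed to 80.7 and 95.0 FPKM with doxycycline and 87.0 and 79.1 FPKM in the controls. Complex III summed to 431 and 477 FPKM with doxycycline and 537 and 439 FPKM in the controls. In each of these complexes the groups overlapped. The sums for complex IV were 795 and 783 FPKM with doxycycline and 929 and 746 FPKM in the controls. Those for complex V were 1168 and 1452 FPKM with doxycycline and 1379 and 1178 FPKM in the controls. The ratio of group means ran from 0.931 for complex III to 1.06 for complex II, and no exact two-sided permutation p was below 0.667, where 2 against 2 libraries cannot go below 0.333.

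**Figure D2:**
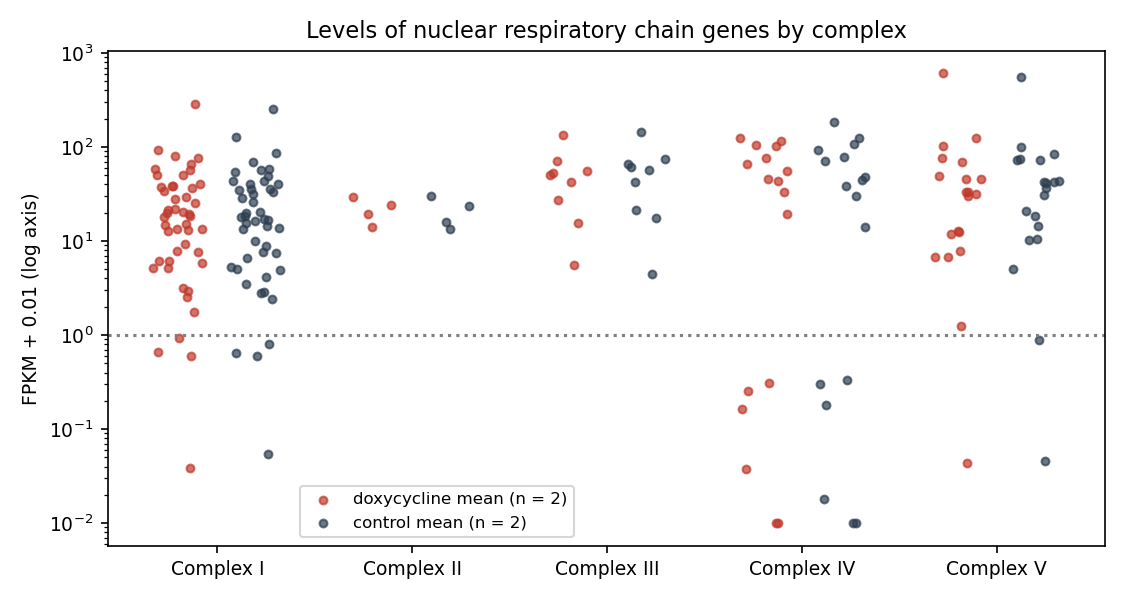
Mean FPKM of each of the 97 genes with doxycycline and in the controls (n = 2 each), on a log axis after adding 0.01; the dotted line marks 1 FPKM. ATP5F1B is the highest gene, and 6 genes of complex IV lie below 1 FPKM in both groups.

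Complex V held both the highest member and the one that differed most. ATP synthase couples a membrane ring, turned by protons, through a central stalk to a catalytic head, while a peripheral stalk holds the head still. ATP5F1B, the catalytic beta subunit, was the highest of all 97 members at 609 ± 102 FPKM with doxycycline and 557 ± 40.2 FPKM in the controls (SD, n = 2 each). ATP5F1A, the alpha subunit of the head, stood at 76.5 ± 21.4 FPKM with doxycycline and 73.9 ± 7.21 FPKM in the controls. The groups overlapped for both head subunits.

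ATP5F1E encodes the epsilon subunit, a small protein of the central stalk. Its gene lies on GRCh38 chromosome 20, 59025467 to 59032382, minus strand (ENSG00000124172). It stood at 6.28 and 7.23 FPKM with doxycycline and at 23.8 and 18.0 FPKM in the controls, from 605 and 679 reads against 1937 and 1610 reads. Both doxycycline libraries were far below both controls, and the libraries of each group lay closer to each other than to the other group. The means were 6.76 ± 0.68 FPKM and 20.9 ± 4.09 FPKM, a ratio of 0.323 (SD, n = 2 each). On the log2(FPKM + 1) scale the difference was -1.49 with a standard error of 0.21 (limma unadjusted p = 0.000443, adjusted p = 0.0573). That adjusted p was the lowest over all genes tested and was shared, through the adjustment, by 106 genes with ATP5F1E among them. Of 12029 genes, 108 (0.898%) had a difference as low or lower.

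The call on ATP5F1E turned on the setting, while its direction held in every alternative run. Its limma adjusted p was 0.0224 when the filter asked for a mean of 5 FPKM or more, where 3.77% of genes passed. It was 0.0339 among protein-coding genes alone (2.37% passed), 0.0308 after adjustment for length and GC content (2.54%) and 0.0493 with limma-voom on recovered reads (1.01%). Without doxycycline replicate 1 it was 0.000645 and without replicate 2 it was 0.000376, where 32.8% and 13.3% of all genes passed. In these fits the doxycycline group is 1 library, assumed to vary like the 2 controls, so the small values rest on the spread between the controls alone and add no support. It was 0.692 without control replicate 1 and 0.474 without control replicate 2, where the spread came from the doxycycline libraries alone. With all 4 libraries and no block it lay between 0.0224 and 0.297 over the alternatives, the last with no filter. Of its exon bases, 23.2% are shared with TUBB1, a platelet tubulin gene on the opposite strand, which stood at 0.198 and 0.172 FPKM with doxycycline and 0.018 and 0.115 FPKM in the controls. TUBB1 was near 0 in all 4 libraries. PRELID3B, the neighbouring gene, stood at 27.1 and 30.6 FPKM with doxycycline and 36.8 and 31.4 FPKM in the controls.

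The other central stalk genes had log2 differences of smaller size. ATP5F1D, the delta subunit bound to epsilon, stood at 57.1 and 40.5 FPKM with doxycycline and 79.0 and 65.9 FPKM in the controls, a log2 difference of -0.58 (limma adjusted p = 0.302). ATP5F1C, the gamma subunit that forms the shaft, stood at 88.9 and 159 FPKM with doxycycline and 90.9 and 79.6 FPKM in the controls. For ATP5F1C only doxycycline replicate 2 was above both controls, and the log2 difference was 0.48 (limma adjusted p = 0.467). For ATP5F1D both doxycycline libraries were below both controls, and after adjustment for length and GC content its log2 difference was -0.20.

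The 3 ring genes encode the same mature c subunit with different targeting sequences, so reads of their near-identical parts could be split between them. ATP5MC1 stood at 32.0 and 31.3 FPKM with doxycycline and 48.0 and 36.2 FPKM in the controls. ATP5MC3 stood at 29.8 and 36.0 FPKM with doxycycline and 45.7 and 36.9 FPKM in the controls. Both lay below both controls, with log2 differences of -0.39 and -0.32 (limma adjusted p = 0.408 and 0.488). ATP5MC2 stood at 45.7 and 45.8 FPKM with doxycycline and 45.6 and 41.3 FPKM in the controls, above both by little.

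In the peripheral stalk the groups overlapped for all 4 genes, ATP5PB, ATP5PD, ATP5PF and ATP5PO, with log2 differences between -0.10 and 0.23. ATP5IF1, the inhibitor that blocks ATP hydrolysis by the enzyme, stood at 13.4 and 12.2 FPKM with doxycycline and 19.1 and 17.5 FPKM in the controls. Both doxycycline libraries were below both controls, with little spread in either group (log2 difference -0.48, SE 0.19, limma adjusted p = 0.259). Among the small membrane subunits, ATP5ME stood at 10.0 and 5.52 FPKM with doxycycline and 17.1 and 11.7 FPKM in the controls (log2 difference -0.84, SE 0.32, limma adjusted p = 0.248). The ATP5ME values are uncertain because 61.6% of its exon bases are shared with MYL5 on the opposite strand, a myosin light chain gene at 5.00 and 2.94 FPKM with doxycycline and 2.11 and 2.05 FPKM in the controls. ATP5MF was below both controls as well, at means of 29.9 and 37.1 FPKM. ATP5MG was above both, at 5.85 and 7.70 FPKM with doxycycline and 5.80 and 4.33 FPKM in the controls. The groups overlapped for ATP5MD and ATP5MPL. ATP5S, coupling factor B, was the lowest tested member of complex V, at means of 1.25 FPKM with doxycycline and 0.869 FPKM in the controls.

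**Figure D3:**
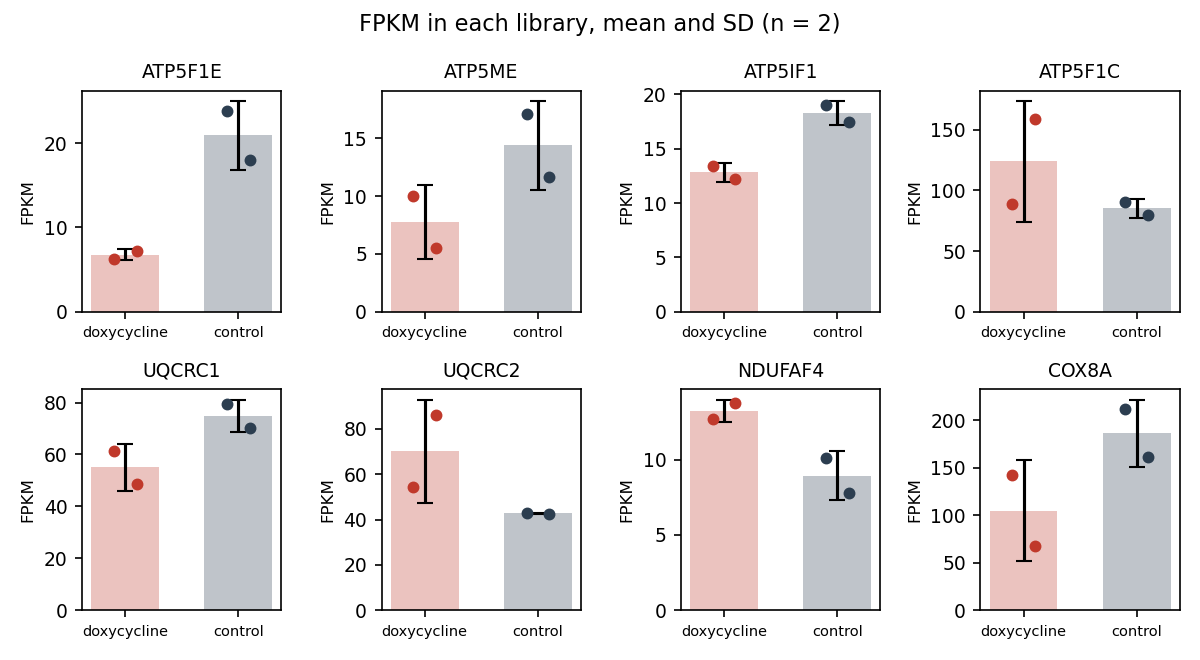
FPKM in each library (points) with group means (bars) and SD (n = 2) for 8 genes. ATP5F1E is at 6.28 and 7.23 FPKM with doxycycline and 23.8 and 18.0 FPKM in the controls, and the groups overlap for ATP5F1C.

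In complex III, which takes electrons from ubiquinol, the core pair lay on opposite sides of the controls. UQCRC1 stood at 61.4 and 48.6 FPKM with doxycycline and 79.3 and 70.3 FPKM in the controls, with both doxycycline libraries lower (log2 difference -0.44, SE 0.23, limma adjusted p = 0.36). UQCRC2 stood at 54.1 and 86.3 FPKM with doxycycline and 42.9 and 42.4 FPKM in the controls, with both doxycycline libraries higher (log2 difference 0.67, SE 0.28, limma adjusted p = 0.28). These proteins occur together in the complex as homologous core subunits. After adjustment for length and GC content the log2 difference was -0.18 for UQCRC1 and 0.62 for UQCRC2. The gap between the genes was not tested.

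UQCRFS1, the Rieske iron-sulfur protein, stood at 37.5 and 48.0 FPKM with doxycycline and 62.7 and 50.8 FPKM in the controls, lower in both (log2 difference -0.40, limma adjusted p = 0.413). UQCR10, a small subunit, was also lower in both, at 52.4 and 49.3 FPKM with doxycycline and 77.5 and 54.7 FPKM in the controls. The groups overlapped for UQCRB, UQCRQ, UQCRH, UQCR11 and UQCRHL. UQCRH, the hinge protein, was the highest of the complex at 128 and 139 FPKM with doxycycline and 157 and 129 FPKM in the controls. UQCRHL, a close copy of UQCRH whose reads could be shared with it, was the lowest at 4.34 and 6.64 FPKM with doxycycline and 4.31 and 4.53 FPKM in the controls. UQCRB, the ubiquinone-binding subunit, had means of 27.6 FPKM with doxycycline and 21.5 FPKM in the controls.

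Complex I is the largest of the chain and has an arm in the matrix, where NADH is oxidised, and an arm in the membrane. Of its 7 nuclear core genes, 6 were tested, with a median log2 difference of -0.01 and members on each side. NDUFS1, the largest subunit, stood at 16.3 and 27.0 FPKM with doxycycline and 15.4 and 15.9 FPKM in the controls, above both chiefly in replicate 2. NDUFS7, an iron-sulfur subunit, was lower at 3.62 and 2.28 FPKM with doxycycline and 4.44 and 3.79 FPKM in the controls. After adjustment for length and GC content the log2 difference was 0.33 for NDUFS1 (0.40 before it) and -0.09 for NDUFS7 (-0.39 before it). The NDUFS7 values are uncertain, since 49.1% of its exon bases are shared with another gene. NDUFS3 stood at 17.4 and 19.5 FPKM with doxycycline and 17.6 and 15.5 FPKM in the controls, and overlapped. NDUFS8, an iron-sulfur subunit, stood at 31.4 and 18.9 FPKM with doxycycline and 36.0 and 31.1 FPKM in the controls. NDUFV1, which binds NADH, stood at 31.3 and 25.2 FPKM with doxycycline and 34.4 and 29.02 FPKM in the controls. Doxycycline replicate 1 lay between the controls for both of these, and replicate 2 lay below them.

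Of 30 accessory subunit genes, which surround the core, 28 were tested, with a median log2 difference of 0.01. Both doxycycline libraries were above both controls for 4 (NDUFA10, NDUFB4, NDUFB5 and NDUFC2) and below both for 3 (NDUFA3, NDUFB2 and NDUFS6). Of all genes tested, 24.3% were above and 28.9% below. NDUFS6, a zinc-binding subunit, stood at 36.3 and 22.2 FPKM with doxycycline and 50.7 and 36.6 FPKM in the controls, so that the libraries nearest each other almost met (log2 difference -0.59, limma adjusted p = 0.363). NDUFB4 stood at 48.2 and 67.9 FPKM with doxycycline and 48.2 and 37.9 FPKM in the controls, so that replicate 1 of each group differed only beyond the printed digits. NDUFB5 had means of 19.6 FPKM with doxycycline and 14.4 FPKM in the controls. NDUFS5 was the highest of complex I at 286 ± 25.2 FPKM with doxycycline and 252 ± 44.7 FPKM in the controls (SD, n = 2 each). NDUFA11 was the lowest tested, at means of 1.75 and 2.39 FPKM.

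The 8 assembly factors of the NDUFAF series had a median log2 difference of 0.05. NDUFAF4 stood at 12.7 and 13.8 FPKM with doxycycline and 10.1 and 7.78 FPKM in the controls, above both (log2 difference 0.53, SE 0.20, limma adjusted p = 0.253). NDUFAF5, which modifies a core subunit, was above both as well, at 4.33 and 5.87 FPKM with doxycycline and 4.01 and 3.04 FPKM in the controls. NDUFAF8 was below both, at 14.4 and 11.4 FPKM with doxycycline and 24.3 and 15.6 FPKM in the controls (log2 difference -0.57, limma adjusted p = 0.32). After adjustment for length and GC content the log2 difference was -0.21 for NDUFAF8, 0.40 for NDUFAF4 and 0.35 for NDUFAF5 (0.43 before it). NDUFAF1, NDUFAF2, NDUFAF3, NDUFAF6 and NDUFAF7 overlapped between the groups. The assembly factors thus had 2 members above and 1 below both controls, where 24.3% and 28.9% of all genes tested were.

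Complex II, succinate dehydrogenase, is also an enzyme of the citric acid cycle. SDHA, the flavoprotein, stood at 28.3 and 31.0 FPKM with doxycycline and 31.0 and 29.4 FPKM in the controls, and SDHB, the iron-sulfur subunit, at 23.4 and 25.5 FPKM with doxycycline and 26.8 and 20.03 FPKM in the controls. The groups overlapped for both. SDHC, a membrane anchor, was above both controls at 17.4 and 21.8 FPKM with doxycycline, against 16.1 FPKM in each control. SDHD, the other anchor, stood at 11.6 and 16.8 FPKM with doxycycline and 13.1 and 13.6 FPKM in the controls. The log2 differences of the 4 genes lay between -0.03 and 0.26.

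In complex IV, cytochrome c oxidase, the nuclear subunits surround a mitochondrially encoded catalytic core. COX8A, a small membrane subunit, was among the highest of the complex and also the one with the lowest log2 difference there. It stood at 142 and 67.1 FPKM with doxycycline and 211 and 161 FPKM in the controls, lower in both but by far the more in replicate 2 (log2 difference -0.91, SE 0.40, limma adjusted p = 0.292). Of its exon bases, 34.5% are shared with AP000721.1 on the same strand, which was listed at 0 in every library. After adjustment for length and GC content the COX8A difference was -0.65. COX7A2L, which takes part in joining complexes III and IV, was above both controls at 19.7 and 18.9 FPKM with doxycycline and 16.1 and 12.4 FPKM in the controls (log2 difference 0.42, SE 0.21, limma adjusted p = 0.338). For the other 9 tested members of complex IV the groups overlapped, among them COX6A1 (means 33.4 and 44.8 FPKM) and COX7C (124 and 92.7 FPKM).

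Tissue isoforms stood far below their general forms in both groups. COX4I1, the general form of its subunit, stood at 69.6 and 60.9 FPKM with doxycycline and 78.8 and 62.3 FPKM in the controls. COX4I2, a form known for hypoxic and lung expression, had 0 reads in all 4 libraries, where 3 reads would give 0.230 and 0.236 FPKM with doxycycline and 0.273 and 0.249 FPKM in the controls. COX6A1, the general form, stood at 40.6 and 26.2 FPKM with doxycycline and 51.2 and 38.5 FPKM in the controls, whereas COX6A2, the form of heart and skeletal muscle, stood at 0.492 and 0 FPKM with doxycycline and 0.233 and 0.106 FPKM in the controls. COX7A2 stood at 41.7 and 49.8 FPKM with doxycycline and 43.2 and 33.5 FPKM in the controls. Its muscle form COX7A1 stood at 0.212 and 0.380 FPKM with doxycycline and 0.188 and 0.457 FPKM in the controls. The groups overlapped for each of these genes. COX6B1 stood at 121 and 112 FPKM with doxycycline and 134 and 116 FPKM in the controls, and COX6B2, its testis form, at 0.0558 and 0 FPKM with doxycycline and 0.0165 and 0 FPKM in the controls. COX7B2, the testis form of COX7B, had 0 reads in all 4 libraries, where 3 reads would give 0.198 and 0.203 FPKM with doxycycline and 0.234 and 0.213 FPKM in the controls. COX8C, another testis form, stood at 0 and 0.307 FPKM with doxycycline and 0.473 and 0.108 FPKM in the controls. The general forms were thus the ones expressed, in both groups. NDUFA4L2, a target of hypoxia-inducible factors that is known to be high in clear cell renal carcinoma, had 1 and 2 reads with doxycycline and 4 and 0 reads in the controls. NDUFA4 stood at 35.5 and 40.1 FPKM with doxycycline and 38.1 and 31.4 FPKM in the controls. ATP5MGL, a copy of ATP5MG, reached at most 0.0719 FPKM.

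The 11 members that were not tested also include NDUFV2, NDUFA13 and NDUFA7, standard subunits of complex I. NDUFV2 had means of 0.596 FPKM with doxycycline and 0.798 FPKM in the controls, NDUFA13 of 0.654 and 0.639 FPKM, and NDUFA7 of 0.916 and 0.589 FPKM. Other genes share 28.4%, 21.0% and 33.5% of their exon bases, in the same order. In all, 20 members share at least 20% of their exon bases with another gene, and how the authors' counting treated such reads is not given in the sources used here.

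The controls differed from each other in 1 direction across almost all members. Control replicate 2 was below control replicate 1 for 81 of 86 members (94.2%), compared with 58.5% of all genes tested. The median difference, control 2 minus control 1, was -0.28 over the members and -0.05 over all genes, so the gap between the controls was larger than the median difference between the groups. The 5 members without this order were NDUFAF7, NDUFS1, SDHC, SDHD and UQCRHL. After adjustment for length and GC content the member median was -0.19.

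**Figure D4:**
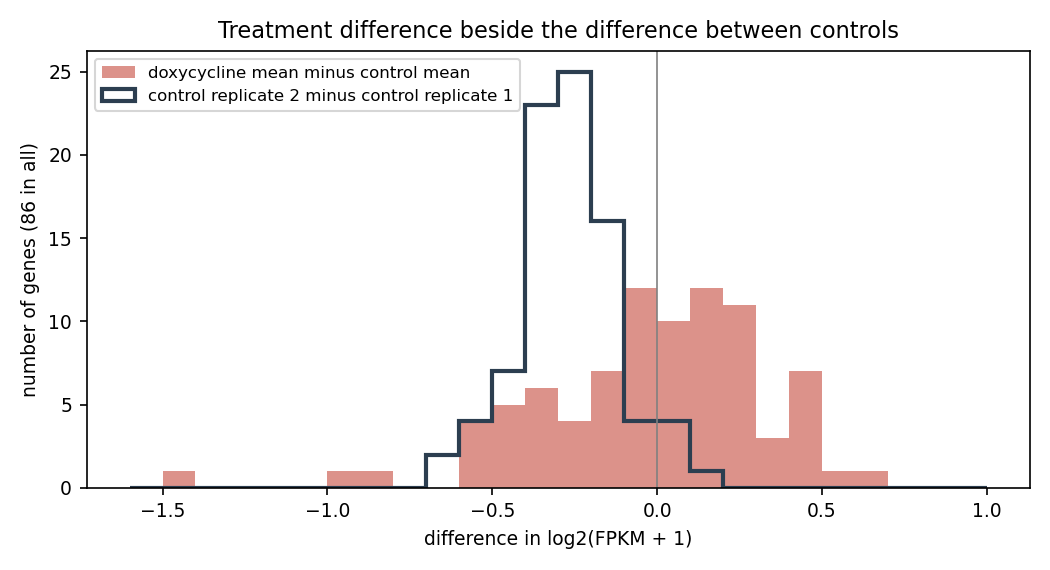
Numbers of the 86 tested genes by difference in log2(FPKM + 1), for doxycycline minus control means (filled) and for control replicate 2 minus control replicate 1 (line). The filled bars centre near 0.03 and the line near -0.28.

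The doxycycline libraries differed from each other along the GC content of the transcripts. Over 86 members, Spearman's rho between GC content and doxycycline replicate 2 minus replicate 1 was -0.65, and over 12024 genes with a GC value it was -0.56. Genes of a library share its depth and composition and are not independent replicates. Of 17 members with a GC content of at least 55%, 15 were lower in replicate 2, with a median of -0.41, and the exceptions were NDUFB11 and NDUFS3. Of 32 members under 45%, 27 were higher in replicate 2, with a median of 0.33. Of 37 members between these bounds, 17 were lower and 20 higher. After adjustment for length and GC content rho was -0.02 over the members, and the SD of the library difference was 0.29, against 0.39 before it.

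The difference between the groups also followed GC content. The median log2 difference was -0.31 for the members of at least 55% GC, 0.00 for those between the bounds and 0.23 for those under 45%. Between GC content and the difference from the control mean, rho over the members was -0.34 for doxycycline replicate 1 and -0.65 for replicate 2, beside -0.06 and -0.50 over all genes. After the adjustment rho over the members was still -0.31 for replicate 1 and -0.22 for replicate 2, beside -0.02 and -0.01 over all genes. The part of GC content in the members' differences that remain was not tested.

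The 5 members with the widest gap between the doxycycline libraries were COX8A (-1.08), COX7B (1.05), ATP5F1C (0.83), NDUFB7 (-0.79) and ATP5ME (-0.76), as log2(FPKM + 1) of replicate 2 minus replicate 1. COX7B, a small subunit of complex IV, stood at 28.2 and 59.5 FPKM with doxycycline and 34.2 and 26.5 FPKM in the controls. NDUFB7, an accessory subunit of complex I, stood at 119 and 68.2 FPKM with doxycycline and 144 and 115 FPKM in the controls. In both, replicate 1 lay between the controls and replicate 2 outside them. The part of GC content in these differences was not tested beyond the adjustment, under which the log2 difference between the groups was -0.10 for NDUFB7, 0.41 for ATP5F1C and -0.65 for ATP5ME.

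**Figure D5:**
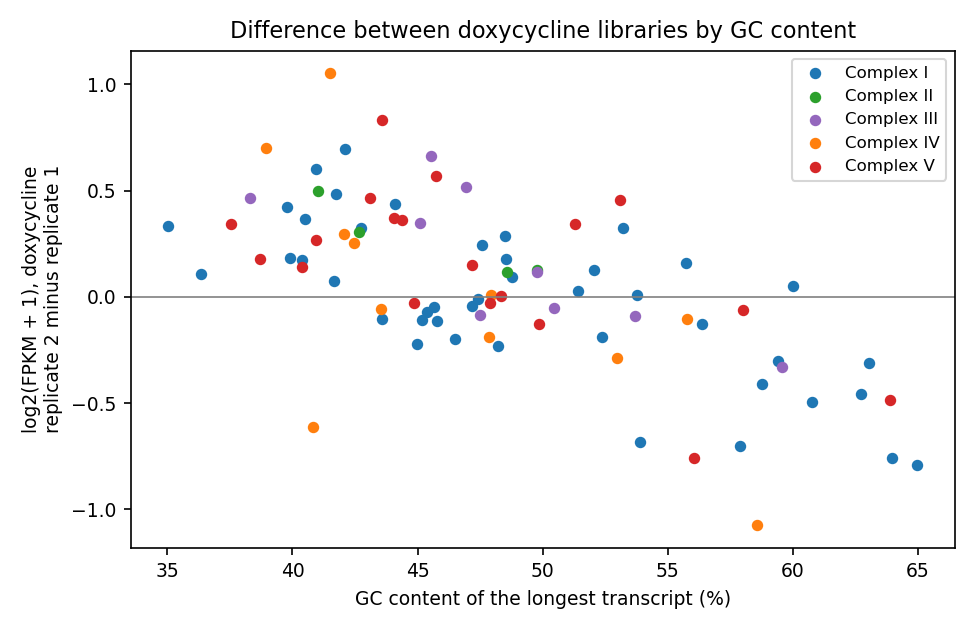
GC content of the longest transcript (x axis, %) against log2(FPKM + 1) of doxycycline replicate 2 minus replicate 1 (y axis) for the 86 tested genes, coloured by complex. Genes of high GC content lie mostly below 0 and genes of low GC content mostly above it, with Spearman's rho of -0.65.

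Subunits encoded in mitochondrial DNA parted between the doxycycline libraries far more than the nuclear ones did. The 13 mitochondrial subunit genes took 5.27% and 11.2% of reads with doxycycline and 6.84% and 7.08% in the controls. The 97 nuclear members together took 1.02% and 1.08% of reads with doxycycline and 1.05% and 0.926% in the controls. The median log2 difference of the mitochondrial genes from the control mean was -0.43 in doxycycline replicate 1 and 0.76 in replicate 2, beside -0.02 and 0.06 for the nuclear members. Of the 13, both doxycycline libraries were above both controls for 2 and below for 0, where 24.3% and 28.9% of all genes were, and 0 passed the test. MT-ATP8, a membrane subunit of ATP synthase whose gene overlaps MT-ATP6, stood at 177 and 262 FPKM with doxycycline and 118 and 131 FPKM in the controls (limma unadjusted p = 0.030, adjusted p = 0.228). It was the 1 gene of the 13 under an unadjusted 0.05, where 6.47% of all genes were higher. MT-ND2, the other gene above both controls, stood at 3938 and 6008 FPKM with doxycycline and 3471 and 3236 FPKM in the controls (limma adjusted p = 0.424).

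Of 40 assembly factors outside the name rule, 37 were tested, with a median log2 difference of 0.00, and 0 passed. Both doxycycline libraries were above both controls for 8 and below for 5, where 24.3% and 28.9% of all genes were. COX15, which makes the heme of complex IV, had means of 20.5 FPKM with doxycycline and 12.7 FPKM in the controls (log2 difference 0.65, limma adjusted p = 0.178). UQCC3, an assembly factor of complex III, had a log2 difference of -0.87, ACAD9, of complex I, -0.49, and FOXRED1, also of complex I, -0.45. Their limma adjusted p was 0.244, 0.260 and 0.258. UQCC3 was low, at 3.59 and 1.53 FPKM with doxycycline and 6.23 and 4.38 FPKM in the controls. At a limma unadjusted p under 0.05, 1 of these assembly factors (COX15) was higher and 3 (UQCC3, ACAD9 and FOXRED1) were lower. Over all genes 6.47% were higher and 11.9% lower at that level. CYC1, the cytochrome c1 of complex III, and CYCS have names outside the rule. CYC1 stood at 149 and 114 FPKM with doxycycline and 187 and 160 FPKM in the controls, lower in both (limma adjusted p = 0.439). CYCS stood at 43.3 and 78.7 FPKM with doxycycline and 67.3 and 51.1 FPKM in the controls, and overlapped (log2 difference -0.006).

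Of 12 transcriptional regulators of mitochondrial or hypoxic genes, 0 passed the test. EPAS1, the hypoxia-inducible factor 2 alpha subunit, stood at 12.1 and 7.14 FPKM with doxycycline and 2.86 and 2.73 FPKM in the controls (log2 difference 1.45, limma adjusted p = 0.073). TFAM, which packages and transcribes mitochondrial DNA, stood at 10.7 and 15.9 FPKM with doxycycline and 22.5 and 19.9 FPKM in the controls (log2 difference -0.66, limma adjusted p = 0.243). Both doxycycline libraries were also above both controls for HIF1A and below both for NRF1, PPARGC1B, PPRC1 and YY1, which makes 2 above and 5 below of 12, where 24.3% and 28.9% of all genes were. PPARGC1A, a coactivator of mitochondrial genes, overlapped between the groups at 3.25 and 9.53 FPKM with doxycycline and 3.25 and 4.75 FPKM in the controls.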

How the data were processed

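RNA was sequenced from 769-P cells, with 2 doxycycline and 2 control libraries grouped by the labels. The authors deposited 1 table per library, holding FPKM for 58735 genes, per the file headers. The submitters' processing notes list HISAT2 2.0.5, limma and featureCounts 1.5.0-p3 without their roles. Build, strandedness and filters are not given in the sources used here. GENCODE release 29 (GRCh38) matched every gene's coordinates and length and gave overlaps and GC content. Without known strandedness, reads of overlapping genes on opposite strands cannot be told apart.

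Reads and depths were recovered from FPKM times gene length, where 100% of values were whole reads (tolerance 0.02 reads). The library sizes behind the FPKM were 107.5% and 97.6% of the reads with doxycycline and 97.2% and 101.0% in the controls. For a 2 kb gene, a count of 0 allows (3 reads) 0.0798 and 0.0819 FPKM with doxycycline and 0.0946 and 0.0861 FPKM in the controls, for counting error only.

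Genes averaging 1 FPKM or more were tested with limma-trend on log2(FPKM + 1), which understates changes of low genes, two-sided, with 2 residual degrees of freedom and Benjamini-Hochberg adjustment over 12029 genes. The threshold was an adjusted p under 0.05. The recovery of reads and the fit were run on simulated reads with noise drawn separately for each gene. Shifts shared by the genes of a library, such as that along GC content, were not simulated. Tools were limma 3.58.1 in R 4.3.3 and Python 3.11.15 with pandas 2.3.3, numpy 2.4.6, scipy 1.17.1 and matplotlib 3.10.9. Members and lists were chosen with earlier results of these data known. Genes named with values are the 2 members of each complex with the lowest p in each direction, its highest and lowest control means, the 5 widest doxycycline gaps, paralogous isoforms, and core or regulatory members. Others were chosen after their values were seen. The values of 1 member are not reported here. Alternatives were other pseudocounts, filters, scalings, a length and GC adjustment, limma-voom, a replicate block and leaving out each library.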

Additional observations from a re-analysis of the deposited data

How the results depend on the processing

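With 2 libraries a group, 1 library can decide a call. Over 86 members, 0 passed the limma threshold in the fit reported, with a pseudocount of 0.1, without a filter, under quantile normalization, scaled without mitochondrially encoded genes and scaled to total reads, the last chosen after seeing the data. The number of members past it was 1 with a mean of at least 5 FPKM, among protein-coding genes alone, after adjustment for length and GC content and with limma-voom, each time ATP5F1E, and 0 to 22 when 1 library was left out. The 22 (10 higher, 12 lower) came without doxycycline replicate 1. Over all genes the counts were 261 with a mean of at least 5 FPKM, 242 for protein-coding genes, 306 after the length and GC adjustment, 121 with limma-voom and 0 to 3942 when 1 library was left out. A group left with 1 library was assumed to vary like the other group, so these counts rest on the spread of that group alone. The cause of the other changes was not tested.

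The replicate numbers only name libraries, since 2 pairs cannot show a pairing. The fit with the replicate block called 2 members, ATP5F1E and ATP5ME (limma adjusted p = 0.00593 and 0.0476), and 784 genes, 6.52% of all. Same-numbered deviations correlated at 0.207, a value that 2 libraries a group make equal for both numbers.

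Under quantile normalization the median log2 difference was 0.0070 for complex III, 0.17 for complex IV and 0.22 for complex V. It was 0.15 over all members and 0.029 over all genes, and 34 members lay above both controls, against 14 in the fit reported. Leaving out 1 library gave medians of -0.14 to 0.17 for complex I, -0.038 to 0.22 for complex II, -0.30 to 0.028 for complex III, -0.16 to 0.14 for complex IV and -0.12 to 0.14 for complex V. It gave 15 to 47 members above and 16 to 44 below both controls, or the 1 left. The shares of all genes above or below the controls under these settings are not given here. These counts of members therefore have no background and cannot be read as particular to the members. SDHA, at -0.03, was 0.085 under quantile normalization, 0.063 scaled without mitochondrially encoded genes, 0.020 scaled to total reads, 0.0038 after the length and GC adjustment, 0.011 with limma-voom and -0.090 to 0.037 without 1 library. SDHB ran from -0.13 to 0.27 without 1 library. Of the 19 genes with the lowest p by complex and direction, the others kept their direction. Tested members rested on unlike numbers of reads. ATP5F1B had 23437 and 28943 reads with doxycycline and 21584 and 21394 in the controls. ATP5ME had 177 and 95 reads with doxycycline and 255 and 191 in the controls. Members that were not tested rested on fewer, such as NDUFV2 with 30 and 30 against 24 and 49 reads. Whether depth limited the calls was not tested.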
